A study of Homo sapiens with 6 samples.

Results

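The regions described here are the open chromatin peaks around the genes FOXA1, FOXA2 and FOXA3 in 22Rv1, a human cell line grown from a prostate carcinoma xenograft. They were taken by position, as every peak overlapping 14:37850000-38250000 (FOXA1), 20:22450000-22680000 (FOXA2) or 19:46340000-46400000 (FOXA3) in build hg19. The windows themselves were set with earlier results of these data known. Peaks of the 6 libraries that overlapped by at least 1 bp were merged into 1 region, which gave 41 of the 167726 regions on the autosomes and X. Of these, 27 lay in the FOXA1 window, 9 in the FOXA2 window and 5 in the FOXA3 window. ATAC-seq, in which a transposase cuts and tags accessible DNA, was run on 2 libraries each of cells labelled 0 h, 1 h and 24 h. All 6 libraries carry the label FOXA1_dTAG, and dTAG is a degron, a tag that makes its protein a target for the proteasome once a matching compound is added. The molecule, its dose, whether the line is 1 clone and whether the replicates were separate cultures are not given in the sources used here, so replicate spread here may be only technical. FOXA1 protein itself was not measured in the files used, and the cell type was not checked against marker genes, since peak lists carry no gene names.

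FOXA proteins are forkhead transcription factors called pioneers, because they can bind their sites in compacted chromatin and make them accessible to other factors. FOXA1 works with the androgen receptor in luminal prostate cells, where it marks the enhancers at which the receptor binds. FOXA2 is best known from the liver, the gut and their embryonic precursors, and in prostate tumours from the neuroendocrine state. FOXA3 is best known from the liver and the gut. The question put to these loci was whether the accessible regions around the gene of the tagged factor, and around its family members, differed in the hours after the start.

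On the autosomes and X, the files listed 101755 to 125396 peaks per library, most at 0 h and fewest at 24 h on average. The relative depth recovered from each list's background averaged 9.37 ± 1.53 tags per kb at 0 h, 8.38 ± 0.343 at 1 h and 7.20 ± 0.204 at 24 h (SD, n = 2 each). Mean depth thus fell with time, but 1 h (8.14 and 8.63) overlapped 0 h (10.5 and 8.29). Only 24 h (7.35 and 7.06) lay below both other times. The part of depth in the counts below was not tested. The shortest peak was 111 bp in 0h replicate 2 and 136 to 172 bp in the other libraries, which bears on widths. With 2 libraries against 2, the exact two-sided permutation test cannot go below p = 0.3333. Single regions are therefore described by their values, by whether the values of the compared times overlap, and by the share of all regions called by the same rule. The fold is the authors' deposited ratio of a peak's summit pileup to its local background. It is read here as having 1 added to both, so it is lower than the plain ratio of the pileups given below. The fold describes a peak within its own list. To set libraries side by side, each list was shortened to its 101755 peaks with the highest −log10 p, and the percentile of a region's highest fold was taken in that list. This left 24h replicate 1 whole and cut most from 0h replicate 2, with 125396 peaks, so percentiles of the full lists can differ.

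Promoter sequences show how the 2 family members with an entry in the RefSeq table (build GRCh38.p14) begin. FOXA1 is shown because every library had a peak at or just before its start, and FOXA3 for comparison. The FOXA1 stretch is chr14:37595250-37595499 on the minus strand and the FOXA3 stretch chr19:45864076-45864325 on the plus strand, each the 250 bases before the gene's start, 5′ to 3′. These positions are of another build than the peaks and cannot be set against them. Capitals mark matches to any motif searched on both strands.
FOXA1: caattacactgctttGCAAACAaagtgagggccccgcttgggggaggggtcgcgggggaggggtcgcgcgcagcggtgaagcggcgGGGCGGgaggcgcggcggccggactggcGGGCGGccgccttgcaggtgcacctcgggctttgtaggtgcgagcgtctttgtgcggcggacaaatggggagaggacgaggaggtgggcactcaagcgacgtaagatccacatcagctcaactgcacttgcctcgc
FOXA3: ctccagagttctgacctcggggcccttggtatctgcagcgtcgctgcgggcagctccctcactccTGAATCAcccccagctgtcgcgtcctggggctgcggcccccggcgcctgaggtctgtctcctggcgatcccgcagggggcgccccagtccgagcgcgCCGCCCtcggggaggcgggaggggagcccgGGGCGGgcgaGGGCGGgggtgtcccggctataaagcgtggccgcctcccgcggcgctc

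The FOXA1 stretch held 1 forkhead match, TGTTTGC on the minus strand of the printed sequence, whose first printed base lies 235 bases before the start. This motif occurred in 3.23% of the 35116 RefSeq promoter stretches of the same length. The FOXA3 stretch held none of the 3 forkhead motifs searched (TGTTTAC, in 2.98% of stretches, TGTTTGC, and TATTTAC, in 2.39%). GC boxes (GGGCGG, in 42.6% of stretches) numbered 2 in FOXA1 and 3 in FOXA3, and an AP-1 motif (TGANTCA, in 6.57%) was found in FOXA3, 185 bases before the start. Neither held a CRE (TGACGTCA, in 1.65%), a CTCF core (in 0.327%) or a full palindromic androgen response element (in 0.00285%). None of the matches overlapped another. Both stretches were rich in G and C, with 67.2% in FOXA1 and 75.2% in FOXA3, against a median of 58% over all stretches. A match describes letters and not binding.

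In the FOXA1 window, 9 of 27 regions had a peak in all 6 libraries (43.3% of all regions did), and 5 had a peak in 1 library only (22.5% of all regions). FOXA1 lies at 14:38058757-38064325 and is read from its high coordinate downwards, so distances below run from 38064325, with downstream meaning lower coordinates. Its nearest protein-coding neighbours in RefSeq are MIPOL1 on the downstream side and TTC6 on the upstream side, and the window may reach into them. The strongest regions lay 28 to 177 kb from the gene start, on both sides of the gene.

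**Figure D1:**
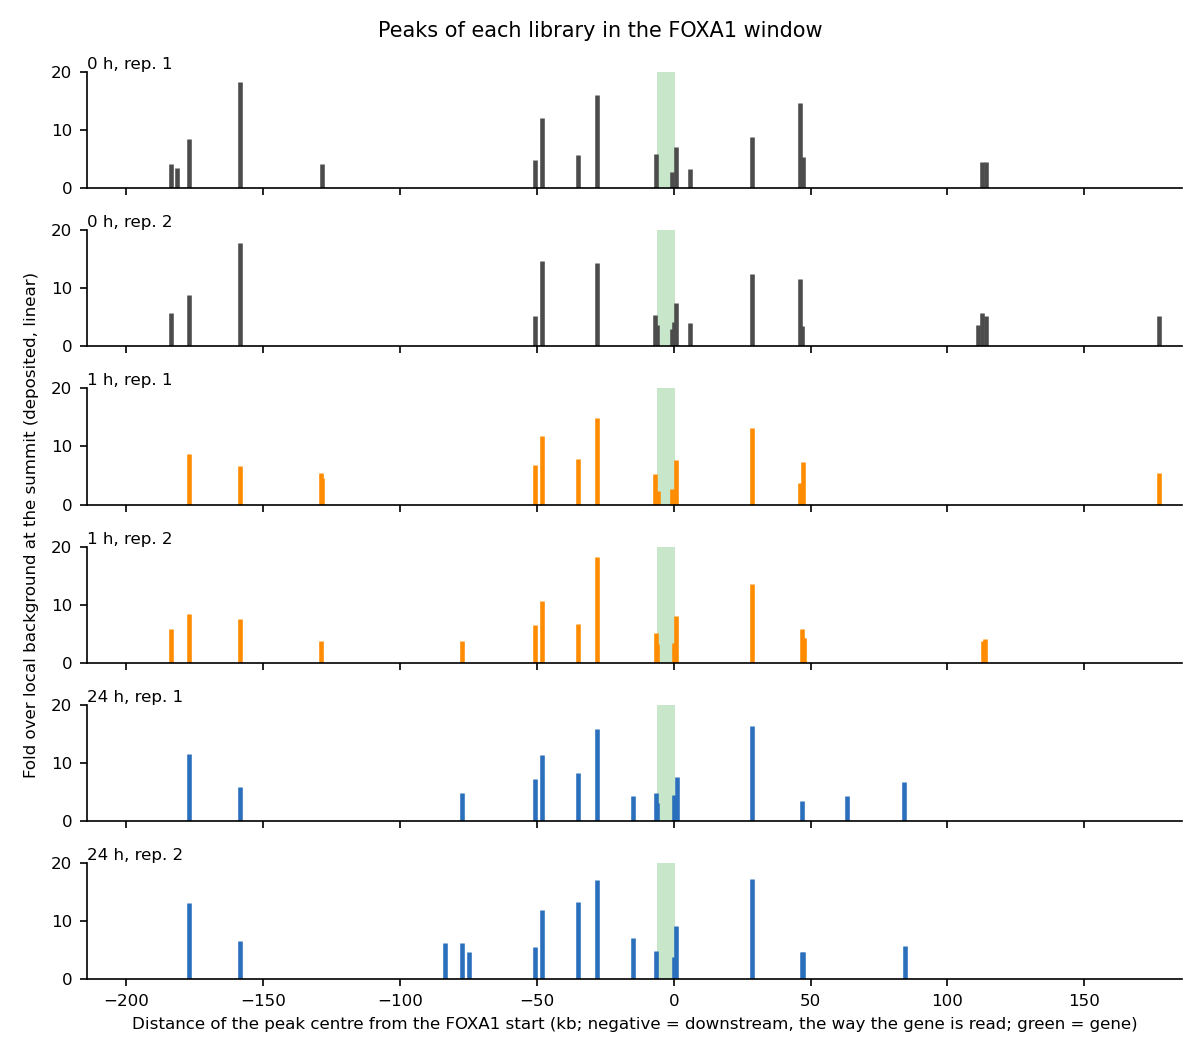
Deposited fold of every peak (vertical axis, linear, from 0) against the distance of its centre from the FOXA1 start in kb (horizontal axis), 1 panel per library from 0 h at the top to 24 h at the bottom, with the gene in green. The tall bar 158 kb downstream stands at folds of 18.3 and 17.9 at 0 h and between 5.78 and 7.57 in the later libraries, and the bar 46.2 kb upstream has no counterpart at 24 h.

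Every library had a peak at or just before the FOXA1 start. Region 14:38064234-38065771 reaches from just inside the gene to 1.446 kb before its start, although peaks of 0h replicate 2 and 24h replicate 1 alone cover the start itself and those of the other 4 libraries begin 72 to 113 bp before it. Its highest fold was 7.01 and 7.54 in 0 h cells, 7.69 and 8.11 in 1 h cells, and 7.51 and 9.07 in 24 h cells. The 1 h values and 24h replicate 2 lay above both 0 h values, and 24h replicate 1 lay between them. In lists of one length the percentiles were 51.3 and 49.5 in 0 h cells, 63.3 and 64.2 in 1 h cells, and 58.4 and 70.3 in 24 h cells, so those of both later times lay above those of 0 h without overlap. The gap of 12.0 percentile points at 1 h was reached upwards by 5.44% of regions with a value in all 4 libraries, and the 7.07 points at 24 h by 12.9%. Within the full lists, however, 24 h (58.4 and 73.5) overlapped 0 h (58.1 and 59.1). There 1 h (66.3 and 69.1) still lay above 0 h.

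These folds and percentiles belong to the summit of the strongest peak of the region and not to the gene start itself. That summit kept to 972 to 1092 bases before the gene start in all 6 libraries. The pileup there, in whole tags, was 87 and 60 in 0 h cells, 90 and 93 in 1 h cells, and 70 and 70 in 24 h cells, the highest of any FOXA1 region in each of the 6 libraries. The moderate fold comes with a local background of 6.83 to 11.5 tags, against 0.92 to 1.62 tags as the most frequent background of the lists. Another, lower peak, with its summit 61 to 202 bases before the start, was separate in 4 libraries. Its folds were 4.18 in 0h replicate 2, 3.46 in 1h replicate 2, and 4.48 and 3.80 at 24 h. The 0 h fold thus lay between those of 24 h, and the 1 h fold was the lowest. In 0h replicate 1 and 1h replicate 1 a single peak covered 1356 and 1375 bp of the region. The summed width was 1356 and 1227 bp in 0 h cells, 1375 and 1161 bp in 1 h cells, and 1071 and 947 bp in 24 h cells, narrower at 24 h than at either other time without overlap.

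The gene body held 1 more region, 14:38063507-38063847, centred 0.648 kb downstream of the start. It was weak, with folds of 2.75 and 3.05 at 0 h and 2.70 in 1h replicate 1, and it had no peak in 1h replicate 2 or at 24 h. Region 14:38057216-38058601 ends 156 bp past the other end of the gene. It had folds of 5.82 and 5.34 in 0 h cells, 5.24 and 5.05 in 1 h cells, and 4.73 and 4.83 in 24 h cells, so that each time lay below the one before without overlap in fold. In percentiles of lists of one length, 1 h and 0 h overlapped, and 24 h lay below 0 h by 0.942 points (17.3% of regions reached this downwards).

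The region with the highest 0 h folds of the window, 14:37905623-37906176, lies 158 kb downstream of the start. Its fold was 18.3 and 17.9 in 0 h cells, 6.67 and 7.57 in 1 h cells, and 5.78 and 6.64 in 24 h cells. Both 0 h libraries stood far above the other 4, and the 24 h values lay just below those of 1 h, with 6.64 as the higher at 24 h and 6.67 as the lower at 1 h. The summit pileup was 80 and 47 tags in 0 h cells, 15 and 17 in 1 h cells, and 11 and 12 in 24 h cells. In lists of one length it stood at percentiles 99.6 and 98.4 in 0 h cells, 53.2 and 58.9 in 1 h cells, and 38.6 and 48.2 in 24 h cells. The gap of 39.4 percentile points between 1 h and 0 h was reached downwards by 483 of 73294 regions (0.659%), and the 50.2 points between 24 h and 0 h by 242 of 68528 (0.353%). These shares include regions too low at 0 h to fall so far, and the share among regions as high at 0 h was not determined. Its width was 530 and 428 bp in 0 h cells, 391 and 278 bp in 1 h cells, and 206 and 294 bp in 24 h cells, narrower at both later times than at 0 h.

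Region 14:38110341-38110691, 46.2 kb upstream, was the 1 strong region of the window that was lost at 24 h. A region was called strong in a library with a −log10 q of at least 10, and strong lost when both libraries of the earlier time held it as strong and neither of the later time held it at all. Its fold was 14.6 and 11.6 at 0 h with pileups of 48 and 25 tags. In 1h replicate 1 it was 3.77 with a pileup of 9 tags and a width of 172 bp, against 351 and 317 bp at 0 h, and there was no peak in 1h replicate 2 or at 24 h. The strong loss was thus 1 of 8 FOXA1 regions strong in both 0 h libraries at 24 h (4.02% of all such regions) and 0 of 8 at 1 h (1.51%). Without 1h replicate 1 it was a strong loss at 1 h too, and it was a strong loss at 24 h whichever 1 library was left out. No FOXA1 region was strong gained at 1 h (0 of 7, against 0.0338% of all regions) or at 24 h against 0 h (0 of 6, against 0.748%). Between 24 h and 1 h none was strong lost (0 of 7, against 0.0896%) or strong gained (0 of 6, against 0.151%).

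The next region upstream behaved otherwise. Region 14:38111105-38112083, under 1 kb away, had a peak in all 6 libraries, with folds of 5.44 and 3.58 in 0 h cells, 7.26 and 5.77 in 1 h cells, and 3.37 and 4.60 in 24 h cells. The 1 h values were the highest, and those of 24 h and 0 h overlapped. The 24 h percentiles lay 21.6 points below those of 1 h, a gap that 1.27% of regions reached downwards. Peaks covered 290 and 248 bp of it in 0 h cells, 959 and 601 bp in 1 h cells, and 203 and 447 bp in 24 h cells.

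Other regions stood higher at the later times. Region 14:38092727-38093381, 28.7 kb upstream, had a fold of 8.85 and 12.4 in 0 h cells, 13.2 and 13.5 in 1 h cells, and 16.3 and 17.2 in 24 h cells. Each time lay above the one before without overlap. The pileup was 25 and 25 tags in 0 h cells, 41 and 43 in 1 h cells, and 45 and 50 in 24 h cells. The percentile was 68.9 and 84.6 in 0 h cells, 94.5 and 94.1 in 1 h cells, and 98.0 and 98.8 in 24 h cells, and the gap of 13.4 points between 24 h and 0 h was reached upwards by 7.32% of regions. Its width of 608 and 301 bp in 0 h cells, 605 and 639 bp in 1 h cells, and 648 and 643 bp in 24 h cells was set apart mainly by 0h replicate 2.

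Region 14:37887085-37887630, 177 kb downstream, had a fold of 8.50 and 8.88 in 0 h cells, 8.75 and 8.41 in 1 h cells, and 11.6 and 13.0 in 24 h cells. Here 0 h and 1 h overlapped and both 24 h libraries stood above them. The gap of 20.02 percentile points between 24 h and 0 h was reached upwards by 4.23% of regions, and the 14.1 points between 24 h and 1 h by 3.52%. Region 14:38013594-38013968, 50.5 kb downstream, had folds of 4.82 and 5.22 in 0 h cells, 6.84 and 6.48 in 1 h cells, and 7.22 and 5.46 in 24 h cells. Its gap of 29.0 percentile points between 1 h and 0 h was reached upwards by 452 of 73294 regions (0.617%), and the 12.9 points between 24 h and 0 h by 7.68%. Region 14:38029240-38029474, 35.0 kb downstream, had a peak in 5 libraries, with a fold of 5.73 in 0h replicate 1, none in 0h replicate 2, 7.92 and 6.73 at 1 h, and 8.18 and 13.3 at 24 h. Like the regions 6.42 kb downstream and 47.3 kb upstream of the start, the regions at 50.5 and 35.0 kb were named after their values were seen, as the remaining FOXA1 regions held by 5 or more libraries.

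**Figure D2:**
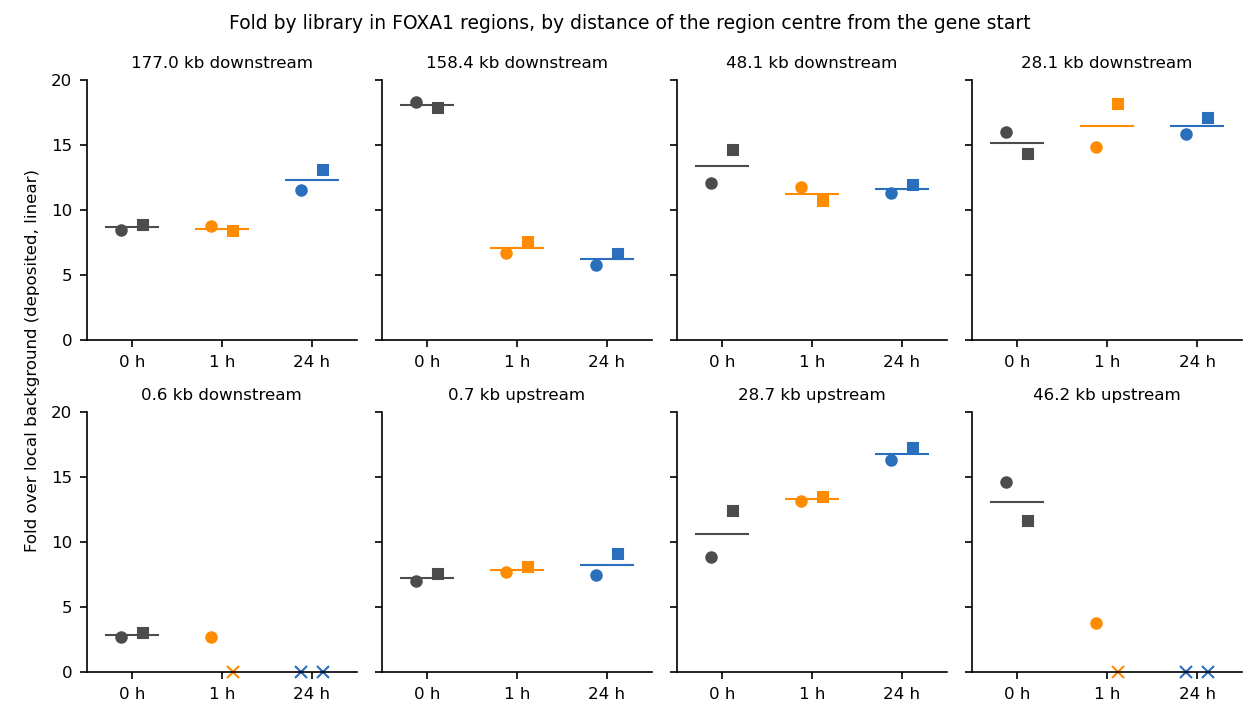
Deposited fold (vertical axis, linear, from 0) at 0 h, 1 h and 24 h in 8 FOXA1 regions, 1 panel each; circles are replicate 1, squares replicate 2, lines the mean of 2 libraries with a peak, and crosses at 0 a library without one. The region 158 kb downstream stands lower at both later times, the one 46.2 kb upstream has no peak at 24 h, and the one 28.7 kb upstream stands at 16.3 and 17.2 at 24 h, against 8.85 and 12.4 at 0 h.

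The strongest region of the window over all libraries, 14:38035898-38036641, lies 28.1 kb downstream of the start. Its folds of 16.0 and 14.3 in 0 h cells, 14.8 and 18.1 in 1 h cells, and 15.8 and 17.1 in 24 h cells overlapped between all times, and so did its percentiles, from 92.1 to 99.5. Its width was 687 and 683 bp in 0 h cells, 691 and 710 bp in 1 h cells, and 727 and 663 bp in 24 h cells. Region 14:38015785-38016579, 48.1 kb downstream, had folds of 12.1 and 14.7 in 0 h cells, 11.8 and 10.7 in 1 h cells, and 11.3 and 11.9 in 24 h cells. Both later times lay below 0 h in fold, but the percentiles of 1 h and 0 h overlapped, and the gap between 24 h and 0 h was 1.68 points, reached downwards by 15.9% of regions. Peaks covered 795 and 683 bp in 0 h cells, 617 and 664 bp in 1 h cells, and 544 and 512 bp in 24 h cells, each time below the one before without overlap.

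Over all FOXA1 regions, percentiles at 24 h were lower than at 0 h without overlap in 3 of 8 regions with a value in all 4 shortened lists (19.3% of all such regions) and higher in 4 of 8 (28.8%). At 1 h against 0 h they were lower in 1 of 8 (17.9%) and higher in 4 of 8 (27.0%). At 24 h against 1 h they were lower in 3 of 10 (21.6%) and higher in 2 of 10 (22.7%). With so few regions, these counts lie within a few regions of the background shares. Widths at 24 h were narrower than at 0 h without overlap in 4 of 9 regions (26.6% of all regions) and wider in 1 of 9 (12.1%). At 1 h against 0 h they were narrower in 2 of 9 (8.78%) and wider in 3 of 9 (29.1%), and at 24 h against 1 h narrower in 4 of 10 (46.2%) and wider in 1 of 10 (5.54%).

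By presence alone, 6 of the 15 FOXA1 regions held by both 0 h libraries were lost at 24 h, that is, had no peak in either 24 h library (13.1% of all such regions). At 1 h, 1 of 15 was lost (7.48%). Apart from the strong region 46.2 kb upstream, the 5 regions lost at 24 h were weak, with −log10 q values of 3.88 to 6.20 at 0 h. They were the gene body region described above, 14:37880485-37880832 (184 kb downstream), 14:38070233-38070533 (6.06 kb upstream), 14:38177002-38177235 (113 kb upstream) and 14:38177894-38178454 (114 kb upstream). Only 14:38070233-38070533, with folds of 3.23 and 4.03 at 0 h, lacked a peak in both 1 h libraries too, and each of the other 5 lost regions kept a peak in 1 of the 1 h libraries. In lists of one length 4 regions were lost at 24 h, and also 4 with presence counted only for peaks covering 50% of the region. When only peaks with a −log10 q of at least 5 were used, 1 region was lost at 24 h, and with at least 10, 3 were. Under such a cut a weaker peak counts as absent. Regions 14:37905623-37906176 and 14:38057216-38058601, lost at the cut of 10, kept weaker peaks in both 24 h libraries. Their −log10 q there was 6.56 and 8.15 for the former, and 9.86 and 9.42 for the latter.

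In the other direction, 3 of the 13 FOXA1 regions held by both 24 h libraries had no peak at 0 h (6.54% of all such regions). Region 14:38148485-38148767, 84.3 kb upstream, had folds of 6.74 and 5.62, and 14:38049445-38049704, 14.8 kb downstream, had 4.33 and 7.15. Both also lacked a peak at 1 h, which makes them the 2 of 13 regions gained at 24 h against 1 h (3.85%). Region 14:37986725-37986997, 77.5 kb downstream, had 4.81 and 6.13 at 24 h and 3.78 in 1h replicate 2. With a −log10 q of at least 5, 1 region was gained at 24 h. At 1 h against 0 h, 1 of 11 regions was gained (3.93%), namely 14:37935250-37935596, 129 kb downstream, with folds of 5.42 and 3.78; it had no peak at 24 h and was the 1 of 11 lost between 1 h and 24 h (6.42%). The remaining 7 regions were held by 1 or 2 libraries, with a highest −log10 q of 2.37 to 7.06.

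**Figure D3:**
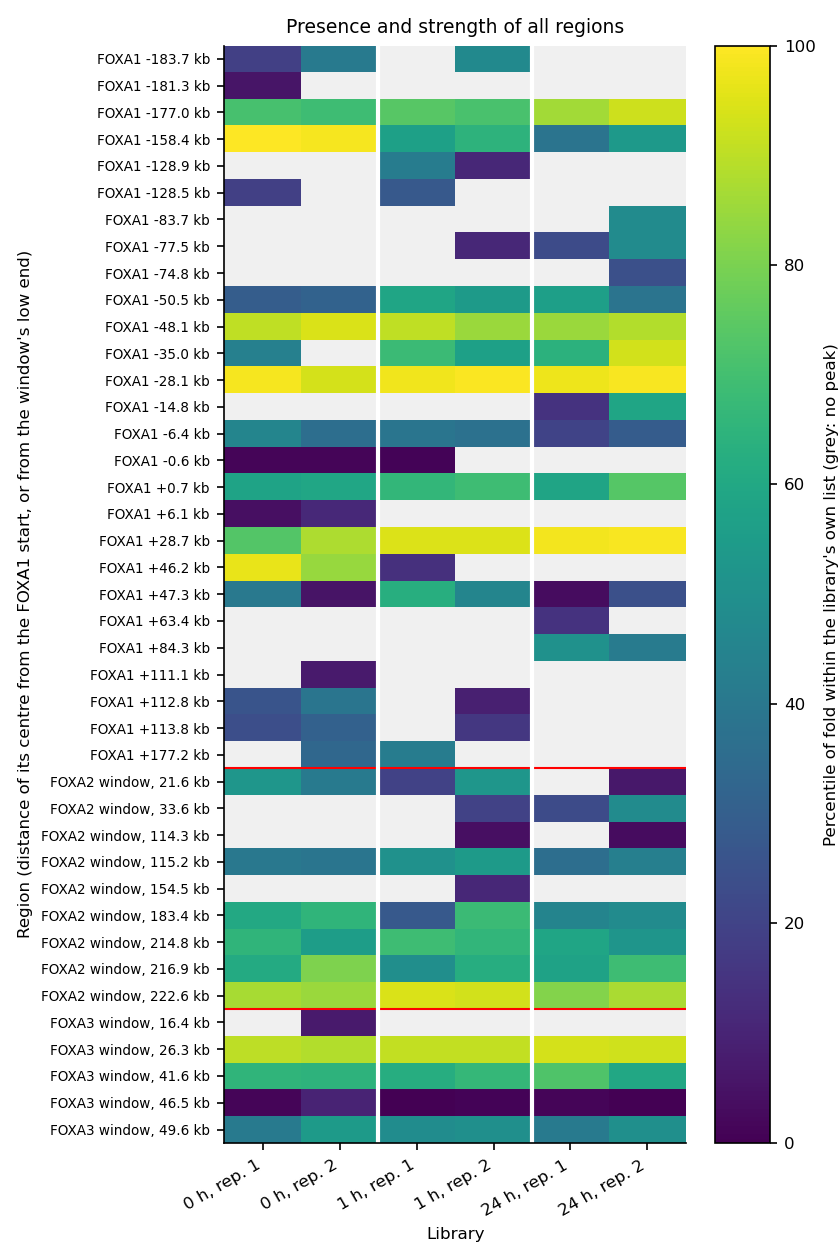
Percentile of each region's fold within the library's full list (colour, 0 to 100; grey where the library has no peak) for all 41 regions (rows, labelled by distance in kb from the FOXA1 start or from the low end of the FOXA2 or FOXA3 window) in the 6 libraries (columns, 0 h to 24 h). Of the FOXA1 rows, 9 of 27 are filled in all columns, of the FOXA2 rows 5 of 9 and of the FOXA3 rows 4 of 5.

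Summed over the FOXA1 window, peaks numbered 18 and 19 in 0 h cells, 16 and 19 in 1 h cells, and 16 and 17 in 24 h cells. They covered 8211 and 6703 bp in 0 h cells, 7996 and 7391 bp in 1 h cells, and 6103 and 6434 bp in 24 h cells. Relative to all peak length of the same list this was 139 ± 2.55 bp per Mb at 0 h, 135 ± 4.48 at 1 h and 133 ± 0.163 at 24 h (SD, n = 2 each). The difference of 24 h minus 0 h was −5.97 bp per Mb without overlap, with an exact two-sided permutation p of 0.3333, the smallest the design allows. It was −0.826 bp per Mb in lists of one length and −4.47 among peaks of −log10 q 5 or more, with overlap in both settings (exact permutation p = 1). The share at 1 h overlapped that of 0 h (exact permutation p = 0.667) and that of 24 h (exact permutation p = 1). Its difference from 0 h was −3.24 bp per Mb, against −8.58 in lists of one length and −8.02 among peaks of −log10 q 5 or more.

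In the FOXA2 window, 5 of 9 regions had a peak in all 6 libraries, near the share of 43.3% over all regions. The strongest, 20:22672248-22672885, had folds of 11.2 and 11.8 in 0 h cells, 13.0 and 12.8 in 1 h cells, and 10.7 and 11.6 in 24 h cells. Its 1 h values lay above those of both other times, and those of 24 h and 0 h overlapped in percentile. Region 20:22666775-22667097 had 7.31 and 10.9 in 0 h cells, 5.98 and 7.28 in 1 h cells, and 7.36 and 8.37 in 24 h cells, and region 20:22664491-22665064 had 7.86 and 7.19, 8.01 and 7.71, and 7.60 and 6.55 at the same times. For both, percentiles at 24 h and 0 h overlapped.

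Region 20:22633117-22633727 had folds of 7.25 and 8.35 in 0 h cells, 4.58 and 7.99 in 1 h cells, and 6.26 and 6.13 in 24 h cells. It was the 1 FOXA2 region of 5 whose percentile was lower at 24 h than at 0 h without overlap (19.3% of all regions were), by a gap of 8.60 points that 8.70% of regions reached. Its width was 217 and 264 bp at 24 h, against 389 and 345 bp at 0 h. The broadest region, 20:22564445-22566009, had modest folds of 5.39 and 5.70 in 0 h cells, 6.15 and 6.51 in 1 h cells, and 5.70 and 5.64 in 24 h cells. Peaks covered 1152 and 847 bp of it in 0 h cells, 1463 and 1200 bp in 1 h cells, and 882 and 626 bp in 24 h cells, most at 1 h and with 24 h and 0 h overlapping. Its percentile at 1 h lay 16.1 points above 0 h, reached upwards by 3.28% of regions, and at 24 h 5.91 points above 0 h, reached by 14.6%. Ranked in the full lists, however, its mean percentile at 24 h was 0.345 points above that of 0 h, against 8.80 points in lists of one length. Which of these regions holds the FOXA2 promoter was not determined, since no hg19 annotation was used.

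None of the 6 FOXA2 regions held by both libraries of the earlier time was lost in any comparison, where 7.48% of all such regions were lost at 1 h against 0 h, 13.1% at 24 h against 0 h and 6.42% at 24 h against 1 h, so that 0 of 6 lies near the background. Of the 6 held by both 24 h libraries, 1 was absent at 0 h (6.54% of all such regions), 20:22483436-22483755, with folds of 4.81 and 6.13 at 24 h and 4.20 in 1h replicate 2. Without 24h replicate 2, 1 region was lost at 24 h against 0 h, namely 20:22471334-22471926, which had folds of 6.49 and 5.74 at 0 h, 4.17 and 6.31 at 1 h, and 3.58 in 24h replicate 2. Region 20:22564183-22564403 had a peak in 1h replicate 2 and 24h replicate 2, with folds of 3.34 and 3.38, and region 20:22604397-22604623 only in 1h replicate 2, with 3.78. The share of all peak length in the FOXA2 window was 54.1 ± 0.132 bp per Mb at 0 h, 67.8 ± 8.67 at 1 h and 53.5 ± 1.44 at 24 h (SD, n = 2 each). The libraries of 1 h held 61.7 and 74.0, those of 24 h 52.5 and 54.5, and those of 0 h 54.0 and 54.2 bp per Mb. The 1 h share lay above the 0 h share by 13.7 bp per Mb without overlap (exact permutation p = 0.3333), or by 7.60 without 1h replicate 2. This difference was 7.10 bp per Mb in lists of one length and 0.882, with overlap, with a −log10 q of at least 5 (exact permutation p = 1). The 24 h share lay below the 1 h share without overlap (exact permutation p = 0.3333). The 24 h and 0 h shares overlapped, with a difference of −0.591 bp per Mb (exact permutation p = 1), but did not overlap in lists of one length, with −8.17, or with a −log10 q of at least 5, with −20.6 (exact permutation p = 0.3333 for both).

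In the RefSeq gene order FOXA3 has SYMPK and IRF2BP1 as its nearest neighbours, and which gene each region of the window belongs to was not determined. Of its regions, 4 of 5 had a peak in all 6 libraries (43.3% of all regions did). None of the 4 regions held by both libraries of a time was lost or gained in any comparison, which lies near the background of 3.85% to 13.1%. Region 19:46365608-46367057 was the strongest, with folds of 12.0 and 12.6 in 0 h cells, 11.8 and 12.1 in 1 h cells, and 13.6 and 13.2 in 24 h cells. Its pileup of 126 and 88 tags in 0 h cells, 122 and 119 in 1 h cells, and 103 and 95 in 24 h cells was the highest of the 41 regions in every library. The 24 h percentiles lay above those of 0 h by a gap of 3.19 points, which 19.7% of regions reached upwards.

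Region 19:46381206-46381973 had folds of 7.84 and 8.31 in 0 h cells, 7.19 and 7.86 in 1 h cells, and 9.16 and 7.20 in 24 h cells, and region 19:46388670-46390490 had 5.56 and 6.996 in 0 h cells, 5.84 and 6.03 in 1 h cells, and 5.88 and 6.21 in 24 h cells. Both overlapped between all times in percentile. Region 19:46388670-46390490 was the broadest of the 41, with 1631 and 1627 bp covered in 0 h cells, 1693 and 1728 bp in 1 h cells, and 1385 and 1653 bp in 24 h cells. Region 19:46386077-46386870 was among the weakest of its lists by fold, with 2.79 and 3.86 in 0 h cells, 2.31 and 2.67 in 1 h cells, and 2.97 and 2.61 in 24 h cells over local backgrounds of 9.74 to 17.6 tags, and 19:46356302-46356504 was held only by 0h replicate 2, with a fold of 3.65. The share of all peak length in the FOXA3 window was 76.1 ± 5.79 bp per Mb at 0 h, 78.5 ± 0.0109 at 1 h and 75.6 ± 0.611 at 24 h (SD, n = 2 each). Neither the 1 h nor the 24 h share was set apart from 0 h (exact permutation p = 1 for both), and the 24 h share lay below the 1 h share without overlap, with a difference of −2.87 bp per Mb (exact permutation p = 0.3333). The last difference was −5.05 in lists of one length and changed sign, to 3.25 with overlap, with a −log10 q of at least 5 (exact permutation p = 1).

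**Figure D4:**
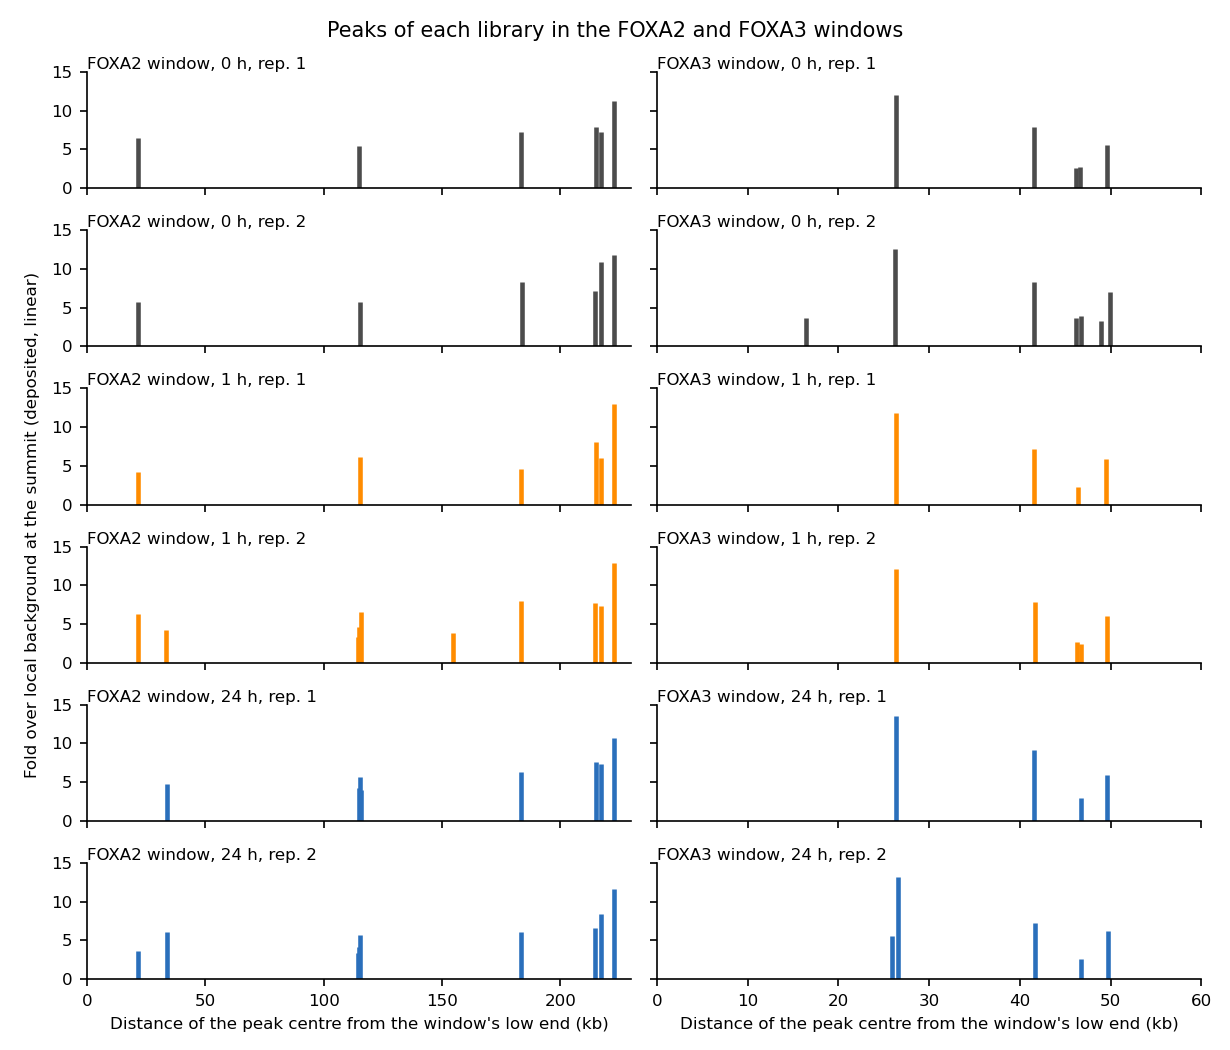
Deposited fold of every peak (vertical axis, linear, from 0) against the distance of its centre from the low end of the FOXA2 window (left) or the FOXA3 window (right) in kb, 1 row per library from 0 h at the top to 24 h at the bottom. The tallest FOXA3 bar stays at folds of 11.8 to 13.6 in all 6 libraries.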

How the data were processed

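According to the submitters' processing notes, the build was hg19 and the tools were fastp, FastQC, MACS2 and Bowtie2; versions, parameters, read shifting for the transposase cut and duplicate removal are not given in the sources used here. Each library has its own deposited peak list. The authors deposited a fold (a ratio) per peak with its −log10 q and −log10 p, used as they stand, and the deposited score, the integer part of 10 times that −log10 q, was not used. The lowest −log10 q was 1.30 to 1.32 in every list, a q threshold of 0.05.

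Lists were merged over the 22 autosomes and X wherever peaks overlapped by at least 1 bp. The window positions and members, and the lists and tests, were chosen with earlier results of these data known. Named regions are those overlapping FOXA1 or the 1 kb before it, the 5 FOXA1 regions with the highest mean percentile of fold, all strong lost or gained regions, up to 5 other lost or gained regions per comparison and direction, and every FOXA2 and FOXA3 region. A region's width is its summed peak length and its fold that of its highest peak. Assuming MACS2's pseudocount of 1 and Poisson p, the pileup came out whole (−log10 p as deposited, within 0.001) for 100% of peaks; relative depth is the most frequent background divided by the shortest peak. Pileups have counting error, and no interval is given since summits are chosen for height. The code for calls and pileups was tested on simulated data. These held peaks fully present or absent by time, equal depth, and pileups made by the same formulas. The simulation thus cannot tell how calls behave near the threshold or at unequal depth. The pathway genes, cell type markers and motifs within peaks planned for an hg19 reference were not run. Python 3.11.15, pandas 2.3.3 and scipy 1.17.1 were used.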

Additional observations from a re-analysis of the deposited data

How the results depend on the processing

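The counts are small, so that 1 or 2 regions often decide them. Relative depth was lower on average at the later times, and its part was not tested. Counts follow as lost or gained for the later against the earlier time. Where a −log10 q cut is named, a peak below it counted as absent. With a −log10 q of at least 5, FOXA1 gains were 0 at 1 h, 1 at 24 h relative to 0 h and 1 relative to 1 h, FOXA1 losses at 24 h 1, strong FOXA1 losses at 1 h 1, FOXA2 losses at 24 h 1 and gains 0, and FOXA3 losses 1 at 1 h and 1 at 24 h against 0 h. With at least 10, FOXA1 losses at 24 h, strong or not, were 3, gains 1 (also by the strong rule, 1) against 0 h and 0 against 1 h, gains at 1 h 0, strong losses 1 at 1 h and 1 at 24 h against 1 h; FOXA2 losses at 24 h were 1 against either time and gains 0; regions in every library numbered 5 (FOXA1) and 1 (FOXA2). In lists of one length, FOXA1 losses at 1 h were 2 and gains 0, and losses at 24 h were 4 against 0 h and 0 against 1 h. There FOXA2 losses at 24 h were 1 against either time and gains against 1 h 1. With presence counted only for peaks covering 50% of the region, FOXA1 losses and gains at 1 h were 2 each and strong losses 1. FOXA1 losses at 24 h were then 4 against 0 h and 2 against 1 h. In this setting FOXA2 losses at 24 h were 2 against either time, FOXA3 losses at 24 h against 1 h 1, and regions in every library 5 (FOXA1) and 3 (FOXA2). In 500 bp summit windows FOXA1 gains at 1 h were 0.

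Leaving out 1 library at a time, FOXA1 losses ranged over 1 to 4 at 1 h (4 without 1h replicate 2, 3 without 1h replicate 1, 2 without either 0 h library), 6 to 8 at 24 h against 0 h, and 1 to 5 against 1 h (5 without 1h replicate 2, 4 without 1h replicate 1). Gains ranged over 1 to 3 at 1 h (3 without 1h replicate 1, 2 without 0h replicate 1), 3 to 5 at 24 h against 0 h (5 without 24h replicate 1) and 2 to 4 against 1 h (4 without 24h replicate 1). Strong FOXA1 losses at 1 h ranged over 0 to 1 (1 without 1h replicate 1) and strong gains at 24 h over 0 to 1 (1 without 0h replicate 1). FOXA2 gains ranged over 0 to 3 at 1 h (3 without 1h replicate 1), 1 to 2 at 24 h against 0 h (2 without 24h replicate 1) and 0 to 1 against 1 h (1 without 1h replicate 2), and FOXA2 losses at 24 h over 0 to 1 against 0 h (1 without 24h replicate 2) and 0 to 1 against 1 h (1 without 1h replicate 1 or 24h replicate 2). FOXA3 losses ranged over 0 to 1 in each comparison (1 without 0h replicate 1 at 1 h, without 0h replicate 1 or 1h replicate 1 at 24 h against 0 h, and without 1h replicate 1 at 24 h against 1 h). A side with 1 library has a looser condition, so such counts tend to grow.

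Shares of peak length changed sign in some settings, in bp per Mb. At a −log10 q of 5 or more the FOXA1 difference between 24 h and 1 h was 3.54, against −2.74 as reported, the FOXA3 difference between 1 h and 0 h −3.28, against 2.39, and between 24 h and 1 h 3.25, against −2.87. In lists of one length the FOXA1 difference between 24 h and 1 h was 7.76. Without single libraries, it ranged from −5.91 to 0.434 (without 1h replicate 1), the FOXA2 difference between 24 h and 0 h from −1.61 to 0.425 (without 24h replicate 1), and the FOXA3 differences from −1.71 (without 0h replicate 1) to 6.49 at 1 h and from −4.58 to 3.62 (without 0h replicate 2) at 24 h against 0 h; the cause was not tested. With replicate numbers as a paired block, the FOXA1 difference between 24 h and 0 h was −5.97 with an exact permutation p of 0.5, the smallest 2 pairs allow; deviations of same-numbered libraries correlated at 0.0165 to 0.0384 over 66285 regions, and what a replicate number means is not stated. By its widest single peak, region 19:46388670-46390490 was 138.5 bp wider at 24 h than at 0 h, where the summed width differed by −110.0 bp.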
